A study of Mus musculus with 9 samples.

Results

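T helper cytokines, their receptors and the lineage regulators of T helper cells were followed in mouse spleen as a set of 36 genes, chosen by symbol and found on the array through the accession of each probe. Of the 36, 35 had a probe, 30 were well above background on at least 3 of the 9 arrays and were tested, and the whole array gave 32451 genes or accessions. Il12b had no probe whose accession matched the reference table and has no value here. The samples were spleens of female BALB/c mice in 3 groups of 3: undiseased mice given little selenium (low Se non-GD), diseased mice given little selenium (low Se GD) and diseased mice given a normal amount (normal Se GD), the disease being Graves' disease. In it, autoantibodies activate the receptor for thyrotropin on thyroid cells. A group without disease on a normal supply was not analysed here, so selenium supply was compared within diseased mice only. How the disease was brought about, the diets, the ages and whether each sample was 1 animal or a pool are not stated in the sources used here, so p-values measure only how far these samples spread, and that spread may be technical.

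Naive CD4 T cells become effector types that differ in the cytokines they make. Th1 cells, set up by IL-12 and the factors STAT4 and T-bet (Tbx21), make interferon gamma and act on macrophages. Th2 cells, set up by IL-4 through STAT6 and GATA3, make IL-4, IL-5 and IL-13. Th17 cells depend on STAT3 and ROR factors and make IL-17 and IL-22, while follicular helper (Tfh) cells, with BCL6 and IL-21, help B cells form antibodies. In spleen the Tfh cells sit in B cell follicles. Many of these genes are also expressed by cells other than CD4 T cells.

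The 250 bases before the start site are shown for Il21, Il2 and Il4 because these 3 cytokine genes passed the test and NFAT, a factor activated through the T cell receptor, is known to act on all of them. The sequences are RefSeq promoters of GRCm38.p6, 5′ to 3′ on the gene's strand, and capitals mark the NFAT core GGAAAA or its reverse complement TTTTCC. Il21 lies at chr3:37232637-37232886 and Il2 at chr3:37125955-37126204, both on the minus strand. Il4, at its start farthest upstream, lies at chr11:53618666-53618915 on the minus strand.
Il21: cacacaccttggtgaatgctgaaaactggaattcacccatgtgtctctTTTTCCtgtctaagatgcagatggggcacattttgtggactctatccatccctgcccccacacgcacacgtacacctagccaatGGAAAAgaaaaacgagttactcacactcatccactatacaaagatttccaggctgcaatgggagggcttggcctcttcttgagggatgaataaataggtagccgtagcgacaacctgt
Il2: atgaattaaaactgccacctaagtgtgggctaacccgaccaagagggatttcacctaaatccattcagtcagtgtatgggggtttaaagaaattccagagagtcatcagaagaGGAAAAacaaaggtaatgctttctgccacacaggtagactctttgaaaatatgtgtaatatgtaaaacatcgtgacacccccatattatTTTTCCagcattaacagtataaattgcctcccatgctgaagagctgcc
Il4: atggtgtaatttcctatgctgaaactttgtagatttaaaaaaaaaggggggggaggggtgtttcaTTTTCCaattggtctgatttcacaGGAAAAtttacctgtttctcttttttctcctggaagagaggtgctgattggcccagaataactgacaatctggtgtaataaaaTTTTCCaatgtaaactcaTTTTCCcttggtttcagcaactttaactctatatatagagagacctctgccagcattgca
Il21 held 2 NFAT cores, Il2 held 2 and Il4 held 4 in this window. In the whole table, windows of 300 bases (250 before to 50 after a start) were searched on both strands, and 31 of the 36 symbols were found there with 42 promoters. The NFAT core was in 17 of these 42, against 23.4% of all 32851 promoters. The STAT palindrome TTCNNNGAA was in 6 of 42 (8.3% of all), the GATA site AGATAA in 6 of 42 (11.2%) and the AP-1 site TGANTCA in 3 of 42 (7.81%). None of the last 3 motifs was found in the windows of Il21 and Il2, and a STAT palindrome was found for Il4 only at another of its starts. A match is a description of letters and not of a bound site.

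Expression was measured on 1-colour Agilent arrays, and every level below is the log2 of the processed signal minus the array's 75th percentile. Levels of different genes come from different probes and are not compared. On 8 arrays 72.6% to 82.6% of spots were well above background, and on normal Se GD replicate 3 this was 58.4%, with 0 saturated spots on any array. The 3 low Se non-GD arrays differed from the other 6 in 2 signals of array and RNA quality: the control spot E1A a107 had levels of 4.72 to 5.85 there against 0.87 to 2.51 elsewhere, and Rn28s1 (28S ribosomal RNA) had 0.45 to 0.83 against 3.0 to 5.99. The arrays fell into 3 scan times in the file headers. Scan 1 covered low Se GD replicate 1 together with all 3 low Se non-GD arrays. Scan 2 covered 2 arrays of normal Se GD (replicates 1 and 2) and 2 of low Se GD (replicates 2 and 3). Scan 3 covered normal Se GD replicate 3 alone. With scan as a block or within scan 1, low Se GD set against low Se non-GD therefore rests on low Se GD replicate 1 alone. With that block, normal Se GD against low Se non-GD also runs through this array, since no scan held both groups. Normal Se GD replicate 3 adds nothing to differences with scan as a block. Within its group, low Se non-GD replicate 3 lay between the others for 78.3% of 18538 genes and low Se GD replicate 2 for 69%, so the spread of these groups may be understated.

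With disease at a low selenium supply, 6 of the 30 tested members passed an adjusted p of 0.05 (20%), against 24.9% of all 26325 genes tested. Ahr, Il10, Il18rap and Il2 were higher (4 members, against 12.8% of all genes) and Il21 and Stat4 were lower (2 members, against 12.2%) in low Se GD than in low Se non-GD. With a normal rather than a low supply in diseased mice, 1 of 30 passed (3.33%, against 1.27% of all genes), Il4ra, which was lower (1 member lower and 0 higher, against 0.292% and 0.976% of all genes). In normal Se GD against low Se non-GD, where both supply and disease differ, 11 of 30 passed (36.7%, against 32.3%), with Ahr, Il10, Il18rap, Il2, Il4, Il6, Stat3 and Tgfb1 higher (8 members, against 18.9%) and Il21, Il4ra and Stat4 lower (3 members, against 13.4%). The median log2 difference of the tested members was 0.16, 0.19 and 0.29 in these comparisons in order, against 0.08, 0.0003 and 0.06 over all genes tested. The comparisons share samples pairwise and are not independent of each other. Il6, counted among the higher members of the last comparison, met the filter only through diseased arrays.

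All p-values named as adjusted are from limma with Benjamini-Hochberg adjustment over the 26325 genes. Leaving out normal Se GD replicate 3, the dimmest array, raised the counts to 11, 3 and 15 members. In the first comparison this added Il4 (adjusted p = 0.0333), Stat6 (0.0193), Il17a (0.00675), Tox2 (0.0156) and Il12a (0.00631). In the second it added Il4 (0.0362) and Il12a (0.0317). In the last it added Il12rb1 (0.0452), Il17a (0.00357), Il22 (0.00842) and Tox2 (0.0032). Without that array all genes past the threshold rose as well, from 6556 to 10786 in the first comparison and from 8514 to 11539 in the last. Leaving out low Se GD replicate 2 lowered the members' first count to 3. Normexp background correction in place of the scanner's own moved the median of all genes in the first comparison from 0.08 to -0.16, and there the members' counts were 1 higher and 2 lower in place of 4 and 2. Under it Il18rap, Il2 and Il10 turned negative in that comparison (-0.13, -0.15 and -0.25), close to that median. Leaving out both in-between arrays (replicate 3 of low Se non-GD, replicate 2 of low Se GD) lowered the counts to 0, 0 and 6, an alternative chosen after seeing the data. All genes past the threshold then fell to 269 in the first comparison and 3043 in the last.

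**Figure D1:**
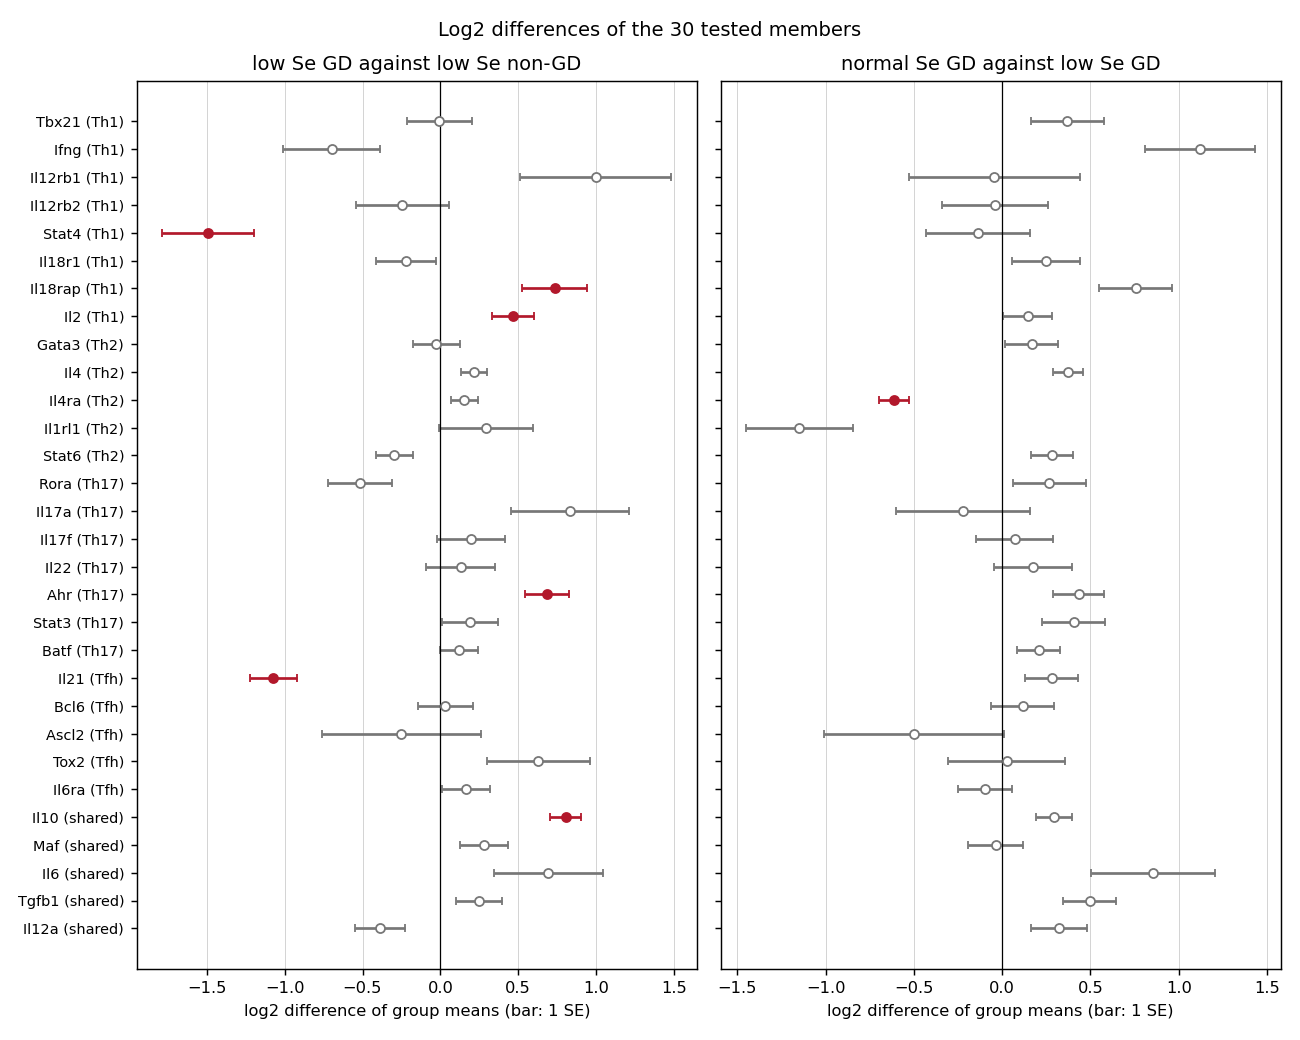
Log2 difference of group means (x axis, bar: 1 SE) of the 30 tested members, ordered by T helper arm, for low Se GD set against low Se non-GD (left) and normal Se GD against low Se GD (right), 3 arrays a group. Filled red points passed the adjusted p of 0.05: on the left Stat4, Il18rap, Il2, Ahr, Il21 and Il10, on the right Il4ra.

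All 8 Th1 members were tested. Stat4 and Il18rap, the signal transducer of the IL-12 receptor and a chain of the IL-18 receptor, changed in opposite directions. Stat4 levels were 2.01, 3.22 and 2.60 in low Se non-GD, 1.34, 1.13 and 0.89 in low Se GD, and 1.16, 1.07 and 0.72 in normal Se GD. Every diseased sample lay below every low Se non-GD sample, and both diseased groups overlapped. Stat4 was lower by 2.81-fold in low Se GD (log2 difference -1.49 ± 0.29 SE, adjusted p = 0.00943) and by 3.10-fold in normal Se GD (-1.63 ± 0.29, adjusted p = 0.00501) than in low Se non-GD. With scan as a block the differences were -1.28 (adjusted p = 0.0798) and -1.17 (adjusted p = 0.192), neither past the threshold, and within scan 1 the former was -1.28 (adjusted p = 0.217) on 1 low Se GD array. Stat4 also ran in the order of the control spot E1A a107 in each group: the array with the highest level of one had the highest of the other, and the lowest the lowest. In the 2 low Se groups the middle arrays were the in-between ones, middle for 78.3% and 69% of 18538 genes. The shared order there is therefore not particular to Stat4. The part of the a107 signal in the Stat4 result was not tested.

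**Figure D2:**
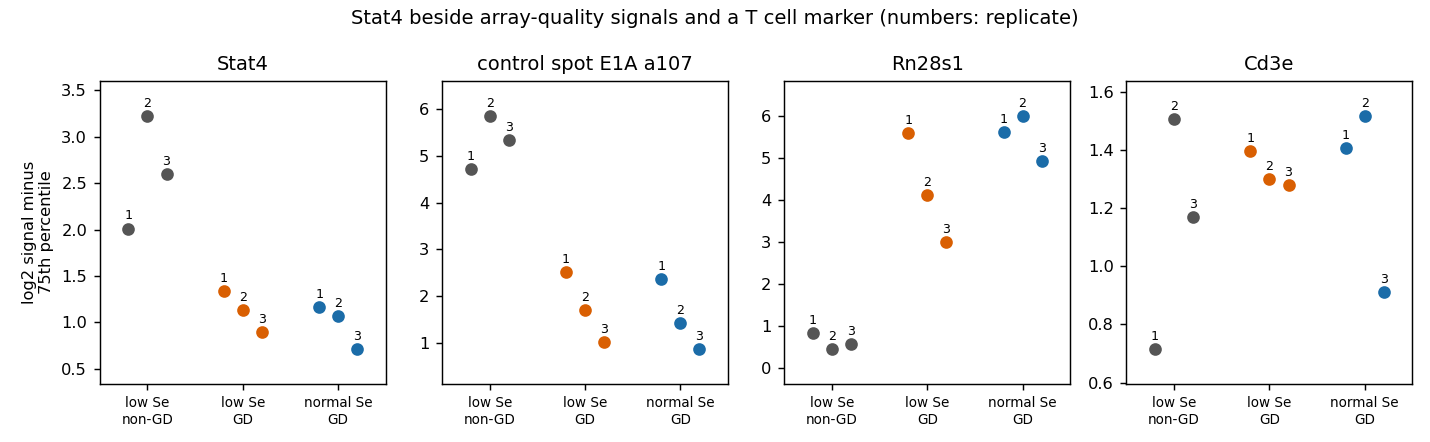
Level on each array (y axis: log2 signal relative to the 75th percentile of its array) of Stat4, the control spot E1A a107, Rn28s1 and the T cell marker Cd3e, with the replicate number above each point. Stat4 and a107 were highest in the 3 low Se non-GD arrays and Rn28s1 was lowest there, while Cd3e overlapped among the groups.

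Il18rap levels were -4.26, -4.96 and -4.27 in low Se non-GD, -3.92, -3.50 and -3.87 in low Se GD, and -3.06, -2.95 and -3.01 in normal Se GD. The 3 groups did not overlap, with low Se non-GD lowest and normal Se GD highest. The gene was 1.66-fold higher in low Se GD than in low Se non-GD (log2 difference 0.73 ± 0.21 SE, adjusted p = 0.0373) and 2.81-fold higher in normal Se GD (1.49 ± 0.21, adjusted p = 0.00198). The step from low Se GD to normal Se GD, 0.76 ± 0.21, did not pass (adjusted p = 0.107). With scan as a block the first 2 differences were 0.57 (adjusted p = 0.234) and 1.25 (adjusted p = 0.0896). After normexp the call in normal Se GD was lost too (0.43, adjusted p = 0.0744). The call in low Se GD was lost on leaving out any 1 of 7 arrays, all but low Se non-GD replicate 1 and normal Se GD replicate 3 (adjusted p = 0.0541 to 0.133).

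Il2, the T cell growth factor that activated T cells make, was higher in both diseased groups. Its levels were -4.20, -4.15 and -4.37 in low Se non-GD, -3.61, -3.90 and -3.82 in low Se GD, and -3.67, -3.41 and -3.81 in normal Se GD. No diseased sample overlapped low Se non-GD, while the diseased groups overlapped each other. The difference was 0.47 ± 0.14 SE for low Se GD (1.38-fold, adjusted p = 0.0421) and 0.61 ± 0.14 for normal Se GD (1.53-fold, adjusted p = 0.0123), both against low Se non-GD. With scan as a block the former was 0.63, on 1 low Se GD array. The call in low Se GD was lost without any 1 of 7 arrays, all but normal Se GD replicates 2 and 3 (adjusted p = 0.0676 to 0.150). That in normal Se GD did not hold without replicate 3 of low Se non-GD (0.54, adjusted p = 0.0546) or after normexp (0.15, adjusted p = 0.634).

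Ifng, which encodes interferon gamma, did not pass in any comparison. Its levels were -1.25, -1.67 and -1.49 in low Se non-GD, -2.81, -2.04 and -1.66 in low Se GD, and -1.18, -1.36 and -0.61 in normal Se GD. Every normal Se GD sample lay above every low Se GD sample, a log2 difference of 1.12 ± 0.31 SE (adjusted p = 0.110; 0.58 and 0.0964 within scan 2). Against low Se non-GD, low Se GD differed by -0.70 ± 0.31 with overlap (adjusted p = 0.146). With scan as a block, resting on low Se GD replicate 1 alone, the difference was -1.34. Tbx21, the Th1 master regulator, had mean levels of 0.45 ± 0.02 (SD, n = 3), 0.44 ± 0.18 and 0.81 ± 0.43 in the groups in that order, and differences of -0.01 and 0.37 that did not pass (adjusted p = 0.987 and 0.378). Of the IL-12 receptor chains, Il12rb1 spread widely in the diseased groups, with 1.09, 1.83 and 2.58 in low Se GD and 1.73, 2.68 and 0.95 in normal Se GD against 0.70, 1.0 and 0.80 in low Se non-GD (differences of 1.0 and 0.95 from low Se non-GD, adjusted p = 0.175 and 0.173). Its dimmer probe had little spread and was higher in normal Se GD than in low Se non-GD (0.72, adjusted p = 0.0022) and than in low Se GD (0.55, adjusted p = 0.0462) in the fit over probes. Il12rb2 and Il18r1, the partner chains, differed by -0.24 and -0.22 in low Se GD set against low Se non-GD and passed in none of the comparisons. A dimmer Il18r1 probe, well above background on 5 arrays, had the other sign there (0.52, adjusted p = 0.349).

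Of the 8 Th2 members 5 were tested. Il5 and Il9 were well above background on 0 of 9 arrays and Il13 on 1, normal Se GD replicate 2, so these cytokine genes had no measured difference. Il4, the cytokine that both starts and marks Th2 cells, had levels of -3.23, -3.19 and -3.28 in low Se non-GD, -3.07, -2.99 and -2.98 in low Se GD, and -2.62, -2.59 and -2.72 in normal Se GD. The 3 groups did not overlap and stood in that order. The difference between normal Se GD and low Se non-GD passed, 0.59 ± 0.08 SE (1.5-fold, adjusted p = 0.0022; 0.54 and 0.0235 with scan as a block), with steps of 0.22 (adjusted p = 0.104) and 0.37 (adjusted p = 0.0744). The second step passed with scan as a block (adjusted p = 0.0400) and within scan 2 (0.38, adjusted p = 0.0472). After normexp background correction the call against low Se non-GD was lost (0.26, adjusted p = 0.168).

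Il4ra, the receptor chain through which IL-4 and IL-13 signal, was the member that passed between the diseased groups. Levels of its brighter probe were -1.69, -1.77 and -1.75 in low Se non-GD, -1.61, -1.61 and -1.52 in low Se GD, and -2.27, -2.20 and -2.13 in normal Se GD. Normal Se GD lay below both other groups with no overlap. It was 1.53-fold lower in normal Se GD than in low Se GD (-0.61 ± 0.09 SE, adjusted p = 0.0369) and 1.38-fold lower than in low Se non-GD (-0.46 ± 0.09, adjusted p = 0.00553). With scan as a block the former was -0.66 (adjusted p = 0.0299), and with the replicate number as a block it did not pass (adjusted p = 0.156). The call held in 4 of 21 alternatives, and was lost without any 1 of 8 arrays, all but normal Se GD replicate 3 (adjusted p = 0.0553 to 0.213). A second Il4ra probe, matched to the same transcript accession, gave different values. Its levels were -1.03, -1.73 and -1.34 in low Se non-GD, -2.86, -3.24 and -2.90 in low Se GD, and -3.03, -2.70 and -3.53 in normal Se GD. That probe separated low Se non-GD from both diseased groups, by -1.63 (adjusted p = 0.0040) and -1.72 (adjusted p = 0.0022), and not the diseased groups from each other (-0.09, adjusted p = 0.875).

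**Figure D3:**
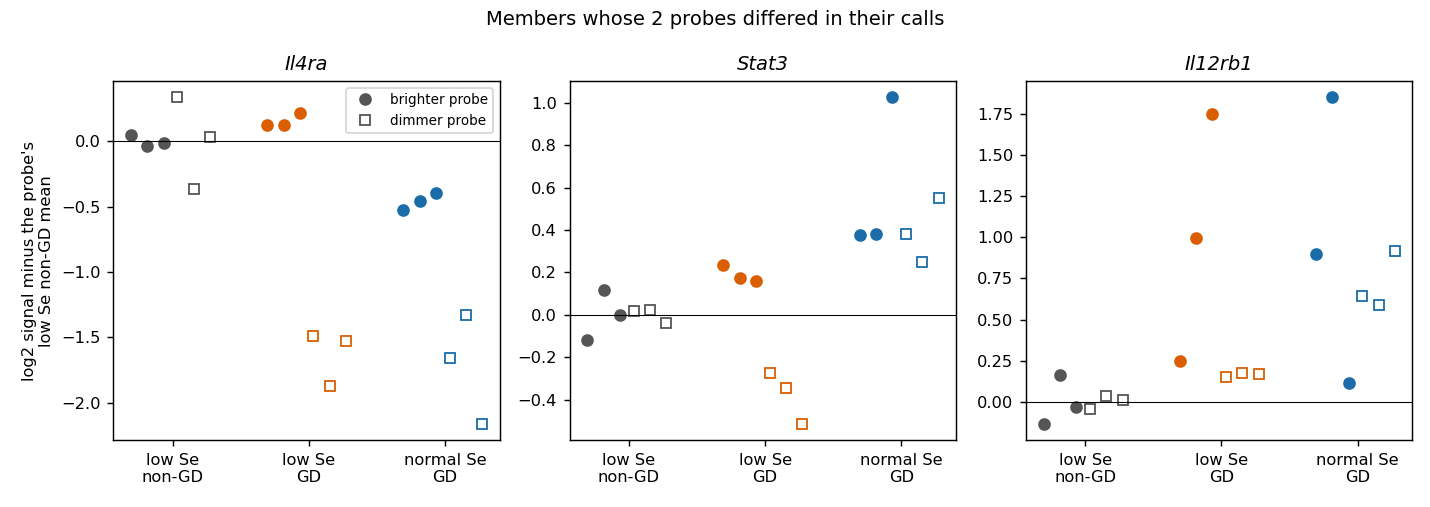
Signal of each probe relative to that probe's mean in low Se non-GD (log2, y axis) for the members with 2 probes that differed in their calls, Il4ra, Stat3 and Il12rb1, with 1 point per array. Filled circles are the probe with the higher mean over the 9 arrays and open squares the other one: for Il4ra the circles drop only in normal Se GD, and the squares in both diseased groups.

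Il1rl1, the IL-33 receptor of Th2 cells, mast cells and innate lymphoid cells, had levels of 0.88, -0.42 and 0.38 in low Se non-GD, 0.35, 0.63 and 0.74 in low Se GD, and -0.69, -0.66 and -0.37 in normal Se GD. Every normal Se GD sample lay below every low Se GD sample. The difference of -1.15 ± 0.30 SE did not pass over all arrays (adjusted p = 0.0973) and passed within scan 2 (-1.36, adjusted p = 0.0357). Of its 2 dimmer probes, well above background on 6 and 4 arrays, neither passed (-1.09 and -0.26, adjusted p = 0.363 and 0.666). Against low Se non-GD, normal Se GD differed by -0.86 with overlap (adjusted p = 0.0638), which passed without replicate 2 of low Se non-GD (-1.21, adjusted p = 0.00844). Both dimmer probes had the other sign there (0.58 and 0.38, adjusted p = 0.513 and 0.372). Gata3, the Th2 master regulator, had means of 0.38 ± 0.28, 0.36 ± 0.12 and 0.52 ± 0.10 (SD, n = 3), with differences of -0.03 and 0.17 that did not pass. Stat6, which carries the IL-4 signal, had means of 2.23 ± 0.06, 1.93 ± 0.10 and 2.21 ± 0.19. Low Se GD lay below low Se non-GD with no overlap (-0.30, adjusted p = 0.110), and by -0.39 with scan as a block, on 1 low Se GD array. Of the 2 dimmer Stat6 probes, 1 had the other sign there (0.04, adjusted p = 0.952). In normal Se GD against low Se non-GD both dimmer probes were above 0 (0.51 and 0.17, adjusted p = 0.348 and 0.442), and the brightest was at -0.02.

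Of the 8 Th17 members 7 were tested, and Il23r was well above background on 0 arrays. Ahr, a ligand-activated factor that Th17 cells and other lymphoid and myeloid cells use, had levels of -2.05, -2.08 and -2.07 in low Se non-GD, -1.66, -1.35 and -1.13 in low Se GD, and -1.0, -0.81 and -1.05 in normal Se GD. The groups did not overlap, with normal Se GD highest. Ahr was 1.61-fold higher in low Se GD than in low Se non-GD (0.68 ± 0.14 SE, adjusted p = 0.0119) and 2.17-fold higher in normal Se GD (1.12 ± 0.14, adjusted p = 0.00154). The latter passed in all 20 alternatives run for it. Scan as a block was among them (0.74, adjusted p = 0.0336), a value that runs through low Se GD replicate 1. The former did not pass with scan as a block (0.40, adjusted p = 0.0585), within scan 1 (0.40, adjusted p = 0.0930) or without low Se GD replicate 2 (0.67, adjusted p = 0.052), nor as the mean of all probes (0.39, adjusted p = 0.432). Between the diseased groups the difference was 0.43 ± 0.14 (adjusted p = 0.157). A second Ahr probe was well above background on 0 arrays.

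Stat3, the transducer of IL-6, IL-21 and IL-23 signals, had levels of 1.53, 1.76 and 1.64 in low Se non-GD, 1.88, 1.82 and 1.80 in low Se GD, and 2.02, 2.02 and 2.67 in normal Se GD. The 3 groups did not overlap, and normal Se GD replicate 3 was the highest array. Normal Se GD was 1.51-fold higher than low Se non-GD (0.60 ± 0.18 SE, adjusted p = 0.0371), a call lost with scan as a block (0.45, adjusted p = 0.0776) and without any 1 of the 6 low Se arrays (adjusted p = 0.0532 to 0.102). The second Stat3 probe passed in all 3 comparisons of the fit over probes. It was lower in low Se GD than in low Se non-GD (-0.38, adjusted p = 0.0425), where the brighter probe differed by 0.19 (adjusted p = 0.485). It was higher in normal Se GD than in low Se GD (0.77, adjusted p = 0.0337) and than in low Se non-GD (0.39, adjusted p = 0.0284).

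The Th17 cytokine genes did not pass in any comparison. Il17a, the defining cytokine, had levels of -6.19, -5.92 and -6.17 in low Se non-GD, -5.11, -5.08 and -5.60 in low Se GD, and -5.03, -4.97 and -6.45 in normal Se GD. It was well above background on 0 of 3, 3 of 3 and 2 of 3 arrays. Means were -5.26 in low Se GD and -6.09 in low Se non-GD, a difference of 0.83 that did not pass (adjusted p = 0.154). In the main analysis this difference came to at least 1.18-fold. Over 20 alternatives it ran from -0.28 to 1.0, so its direction did not hold in all of them. With scan as a block it was 0.99, on 1 low Se GD array. Normal Se GD replicate 3, the dimmest array, lay apart from the others of its group. Il17f and Il22 had differences of 0.19 and 0.13 in low Se GD set against low Se non-GD, and of 0.07 and 0.17 in normal Se GD against low Se GD. For Il22, which epithelial cells respond to, the last of these was 0.53 with scan as a block (adjusted p = 0.0459), and normal Se GD against low Se non-GD was 0.83 (adjusted p = 0.0241) in place of 0.31 (adjusted p = 0.337). The same block gave Il17a 1.33 there (adjusted p = 0.0352) in place of 0.61 (adjusted p = 0.264). Both block values against low Se non-GD run through low Se GD replicate 1. Rora, a ROR factor, had means of -1.0 ± 0.39, -1.51 ± 0.23 and -1.25 ± 0.11 (SD, n = 3). Its difference in low Se GD, -0.52 (adjusted p = 0.110), passed without replicate 1 of low Se non-GD (-0.71, adjusted p = 0.0322). Batf, an AP-1 partner needed for Th17 and Tfh cells, had means of -0.05 ± 0.21, 0.07 ± 0.08 and 0.28 ± 0.06. Its difference of 0.32 between normal Se GD and low Se non-GD (adjusted p = 0.0786) passed without replicate 2 of low Se non-GD (0.43, adjusted p = 0.0368).

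Of the 6 follicular helper members 5 were tested, and Cd40lg, the helper signal to B cells, was well above background on 1 array, low Se GD replicate 2. Il21, the cytokine of Tfh cells, had levels of -3.77, -3.85 and -3.83 in low Se non-GD, -5.21, -4.63 and -4.82 in low Se GD, and -4.65, -4.50 and -4.67 in normal Se GD. Every diseased sample lay below every low Se non-GD sample, and normal Se GD replicate 3 was not well above background. Il21 was 2.10-fold lower in low Se GD (-1.07 ± 0.15 SE, adjusted p = 0.0027) and 1.73-fold lower in normal Se GD (-0.79 ± 0.15, adjusted p = 0.00588) than in low Se non-GD. Within scan 1, on 1 low Se GD array, the difference in low Se GD was -1.39, and scan as a block gave the same value from that array. The calls were lost after normexp background correction (-0.69 and -0.28, adjusted p = 0.0526 and 0.448). Il2, the neighbouring cytokine gene whose promoter is printed beside it above, was higher in the same 2 comparisons.

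The regulators of Tfh cells did not pass in any comparison. Bcl6, their master repressor, had means of 1.2 ± 0.12, 1.23 ± 0.28 and 1.34 ± 0.24 (SD, n = 3). Ascl2, which starts the programme, had -4.07 ± 0.33, -4.32 ± 0.06 and -4.82 ± 1.18, the last with normal Se GD replicate 3 at -6.17 and not well above background. Tox2 had -0.46, -0.24 and -0.44 in low Se non-GD against -0.04, 0.47 and 0.32 in low Se GD, which did not overlap (0.63 ± 0.33 SE, adjusted p = 0.209), and 0.58, 0.80 and -0.55 in normal Se GD. Il6ra, the IL-6 receptor chain, had means of 3.10 ± 0.20, 3.27 ± 0.23 and 3.17 ± 0.09.

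Of the 6 cytokines and regulators shared among the arms 5 were tested. Il10, an inhibitory cytokine of many T cell and myeloid types, had levels of -5.34, -5.53 and -5.36 in low Se non-GD, -4.72, -4.53 and -4.57 in low Se GD, and -4.36, -4.24 and -4.33 in normal Se GD. The 3 groups did not overlap. Il10 was 1.75-fold higher in low Se GD than in low Se non-GD (0.81 ± 0.10 SE, adjusted p = 0.0020) and 2.14-fold higher in normal Se GD (1.1 ± 0.10, adjusted p = 0.00052). With scan as a block the former was 0.70, on 1 low Se GD array. Only 1 of 3 low Se non-GD arrays measured Il10 well above background, against 3 of 3 and 2 of 3 in the diseased groups. After normexp background correction the differences were -0.25 (adjusted p = 0.357) and 0.16 (adjusted p = 0.688). In the authors' deposited table the call in low Se GD was also lost (0.68, adjusted p = 0.127).

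Tgfb1, a growth factor needed for regulatory T cells and Th17 cells, had levels of -0.69, -0.97 and -0.82 in low Se non-GD, -0.69, -0.54 and -0.50 in low Se GD, and -0.24, -0.23 and 0.22 in normal Se GD. Normal Se GD lay above both other groups. It was 1.68-fold higher than low Se non-GD (0.75 ± 0.15 SE, adjusted p = 0.00769; 0.42 and 0.110 with scan as a block) and differed from low Se GD by 0.50 (adjusted p = 0.128). Il6, an inflammatory cytokine that favours Th17 and Tfh cells, was dim. It was well above background on 0, 1 and 2 of 3 arrays in low Se non-GD, low Se GD and normal Se GD, with means of -7.53, -6.83 and -5.98. Without replicate 1 of low Se GD, the difference of that group from low Se non-GD passed (adjusted p = 0.00635). Il6 met the filter only through diseased arrays, so the adjusted p of 0.0127 between the first and the last group comes with no fold. That call was lost with scan as a block (adjusted p = 0.108), quantile normalization (0.185) and in the authors' table (0.170). It was also lost without both in-between arrays (0.0642) and after normexp, where the difference was -0.04 (0.950).

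Il12a, a chain of IL-12 and IL-35, had levels of -2.04, -1.95 and -2.01 in low Se non-GD, -2.48, -2.39 and -2.29 in low Se GD, and -1.86, -1.90 and -2.44 in normal Se GD. Low Se GD lay below low Se non-GD with no overlap (-0.39 ± 0.16 SE, adjusted p = 0.117). With scan as a block the difference was -0.48, on 1 low Se GD array. Maf, a factor that drives Il4, Il10 and Il21, had means of 2.05 ± 0.22, 2.33 ± 0.03 and 2.29 ± 0.24 (SD, n = 3) and did not pass in any comparison.

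**Figure D4:**
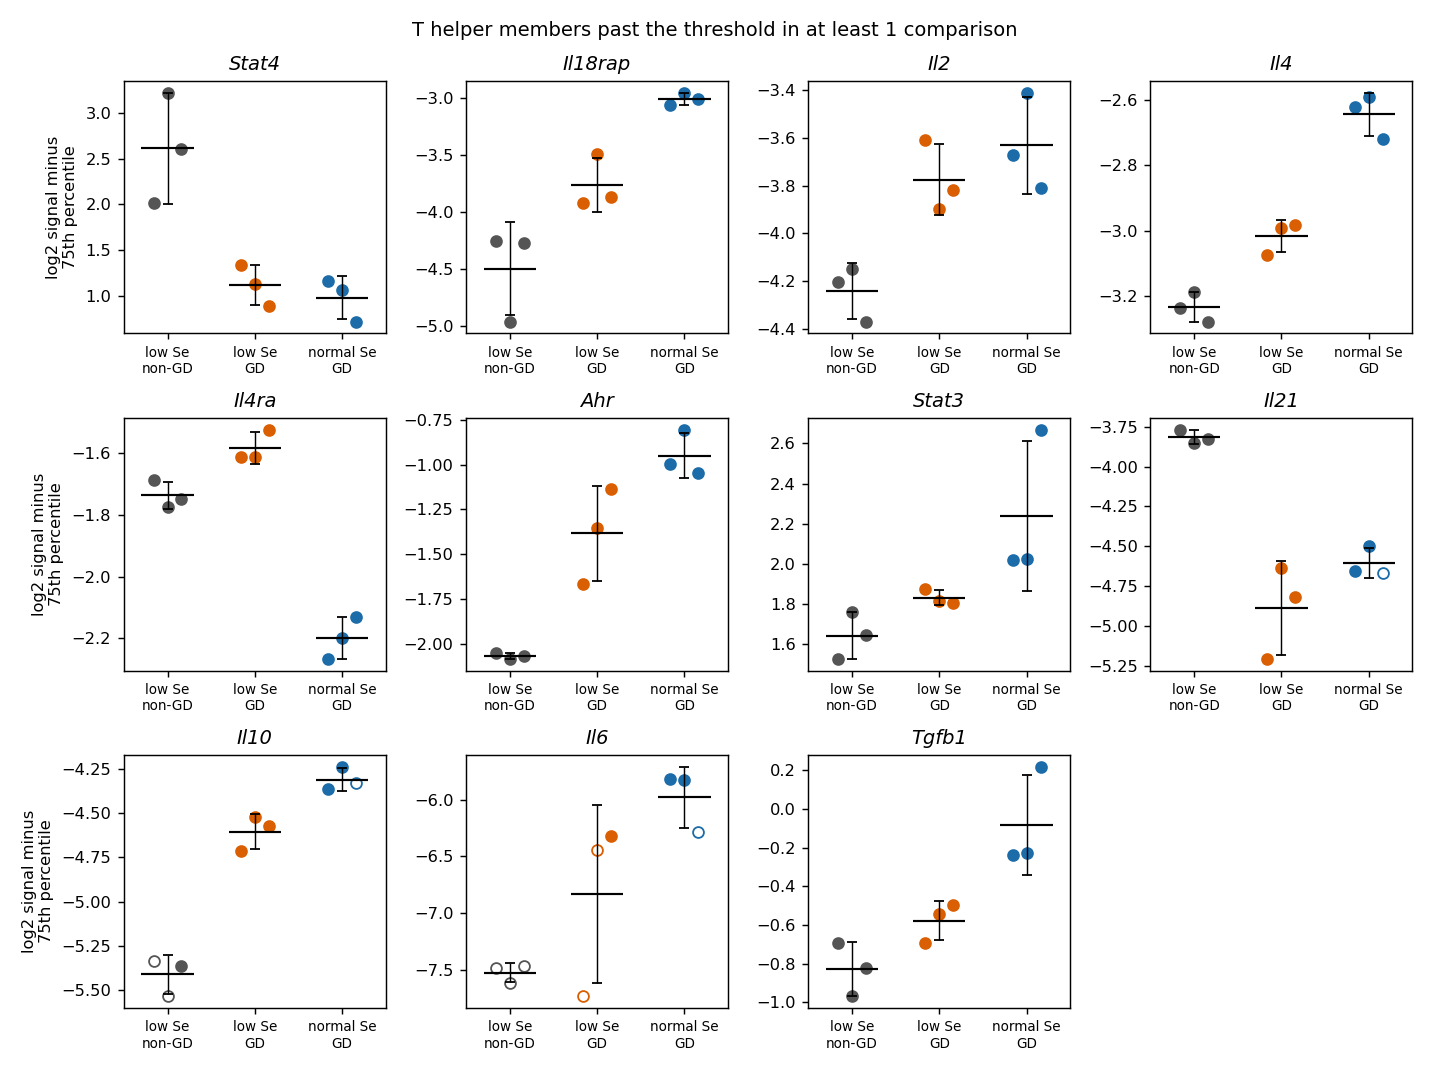
Levels of the 11 members past the adjusted p of 0.05 in at least 1 comparison, 1 point per array (log2 signal relative to the 75th percentile of its array, y axes differ), with the mean and SD of 3 arrays. Open points were not well above background: the 3 groups of Il18rap, Il4, Ahr, Stat3 and Il10 do not overlap, and those of Stat4, Il21 and Il2 separate low Se non-GD from both diseased groups, which overlap each other.

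Other genes of these pathways were taken as 74 genes in 5 lists, of which 69 were tested. In low Se GD set against low Se non-GD, 7 were higher and 10 lower (24.6%, against 24.9% of all genes), in normal Se GD against low Se GD 3 were higher and 1 lower (5.8%, against 1.27%), and in normal Se GD against low Se non-GD 22 were higher and 4 lower (37.7%, against 32.3%). Of all genes, 12.8% were higher and 12.2% lower in the first comparison, and 18.9% and 13.4% in the last. Each list and marker count below is to be set beside these shares. Among the 17 Th1 pathway genes, 2 were higher and 0 lower in the first comparison, Hlx (0.57, adjusted p = 0.00992) among them. In the last comparison 9 of the 17 were higher and 0 lower, among them Hlx (0.82) and Cxcr3 (0.69), a chemokine receptor of Th1 cells.

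Of the 15 Tfh pathway genes, all tested, 1 was higher and 3 lower in low Se GD than in low Se non-GD. Pdcd1, which encodes the inhibitory receptor PD-1 that Tfh cells carry, fell by 2.42 on the log2 scale (adjusted p = 0.00277), beside Il21r (-0.62, adjusted p = 0.0212), the receptor of IL-21, and Cd40 (-0.60, adjusted p = 0.0393), the B cell partner of CD40 ligand. Cd28, a costimulatory receptor, was higher (0.71, adjusted p = 0.0227). In normal Se GD against low Se non-GD Pdcd1 was again lower (-2.40) and 4 genes were higher, among them Icos (0.89), Cd28 (0.84) and Tcf7 (0.54), the first a costimulatory receptor of Tfh cells.

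Of 14 tested Th17 pathway genes, Il17ra, the common IL-17 receptor chain, was lower in low Se GD than in low Se non-GD (-0.74, adjusted p = 0.00615) and higher in normal Se GD than in low Se GD (0.79, adjusted p = 0.0441). Nfkbiz, which encodes a regulator of IL-17 target genes, was likewise lower (-0.62, adjusted p = 0.00526) and higher (0.68, adjusted p = 0.0427). Ccr6, the chemokine receptor of Th17 cells that B cells also carry, was lower in the first comparison (-0.59, adjusted p = 0.012). In all, 2 were higher and 4 lower there, and 3 were higher and 0 lower in normal Se GD against low Se non-GD. Of 13 tested Th2 pathway genes, 1 was higher and 3 lower in the first comparison and 2 and 2 in the last. Il13ra1, a chain of the IL-13 receptor that myeloid cells carry, was higher in both (0.87 and 1.62). Bhlhe41 (-1.09 and -0.88) and Il5ra, the IL-5 receptor chain (-0.73 and -0.77), were lower in both. Of 10 genes of the common gamma chain and Il2 signalling, Socs1, an inhibitor of cytokine signalling, was higher in both (0.79 and 1.32). Il2rb (0.97), Il15 (0.95) and Cish (0.79) were higher in normal Se GD than in low Se non-GD. Il15ra was lower in normal Se GD than in low Se GD (-0.58, adjusted p = 0.0433).

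Markers of the cells that carry these genes were read from the same fit. All 16 T cell and all 10 B cell markers were well above background on at least 3 arrays. Of the T cell markers 0 of 16 were higher and 1 lower in each comparison with low Se non-GD, namely Cd247, which encodes the zeta chain of the T cell receptor complex (-1.11, adjusted p = 0.0268, and -1.02, adjusted p = 0.0289). The summed T cell marker signal, relative to the 75th percentile, was 69.4 to 112 in low Se non-GD, 81 to 88.7 in low Se GD and 85.5 to 89.5 in normal Se GD. Cd4 means were 3.19 ± 0.30, 3.16 ± 0.04 and 2.98 ± 0.32 (SD, n = 3), Cd3e means 1.13 ± 0.40, 1.33 ± 0.06 and 1.28 ± 0.32, and Cd8a means 0.83 ± 0.35, 0.41 ± 0.11 and 0.77 ± 0.28. In whole spleen, fewer cells of a type and less RNA per cell cannot be told apart.

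Markers of other cell types that express some of the members also differed between groups, not all of them in both diseased groups. Natural killer markers were higher for 7 of 10 genes in low Se GD and 8 of 10 in normal Se GD, each against low Se non-GD, with Klrb1c (1.80 and 1.38), Gzma (1.74 and 1.88) and Gzmb (1.42 and 2.17) among them. Their median level was -2.11 to -2.0, -1.50 to -1.33 and -1.12 to -1.04 in the 3 groups in order. Their summed signal, 71.3 to 77, 58 to 66.5 and 27.7 to 54, ran the other way. Cd244a made the largest part of that sum, with means of 6.10, 5.63 and 4.76, and did not pass in any comparison. Macrophage markers were higher for 7 of 9 and 8 of 9 genes, C1qa the most (1.46 and 1.62), with sums of 30.6 to 38.5, 64.1 to 66.4 and 61.1 to 76.6. Dendritic cell markers were higher for 5 of 10 and 6 of 10, with sums of 267 to 282, 153 to 237 and 78.5 to 185. Siglech made the largest part of these sums, with means of 8.03, 7.32 and 6.79, and did not pass in any comparison. The median level of the dendritic cell markers was -0.45 to -0.34, 0.14 to 0.24 and 0.58 to 0.87. B cell markers were lower for 5 of 10 in low Se GD, among them Fcer2a (-0.96) and Cr2 (-0.77), with sums of 129 to 148, 98.2 to 103 and 117 to 126. In normal Se GD 1 B cell marker was higher and 2 were lower than in low Se non-GD. Between the diseased groups 2 were higher and 0 lower in normal Se GD. Regulatory T cell markers were lower for 1 of 6 in low Se GD, Ikzf2 (-0.67), and for 0 of 6 in normal Se GD. Natural killer cells also express Stat4, Il18rap, Il12rb2 and Ifng, and myeloid cells Il10, Il6, Tgfb1 and Il4ra. The part of these cells in the members' results was not tested.

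Mast cell and basophil markers, whose cells express Il4, Il1rl1 and Il13, were 11 genes with summed levels of 2.47 to 3.28, 2.51 to 2.58 and 2.57 to 2.84, and Ms4a2 was well above background on 0 arrays. Of the 10 tested, 1 was higher and 2 lower in low Se GD, and 3 were higher and 1 lower in normal Se GD, each against low Se non-GD. Mcpt4 was lower in low Se GD (-1.06, adjusted p = 0.00515). Prss34 was higher (0.92 and 0.93) and Gata2 lower (-1.57 and -1.56) in low Se GD and normal Se GD against low Se non-GD. Cpa3 was higher in normal Se GD than in low Se GD (0.96, adjusted p = 0.0451), and Mcpt8 (0.65) and Kit (0.53) in normal Se GD than in low Se non-GD. The part of these cells in the Il4 and Il1rl1 values was not tested. Fat tissue markers, which mark tissue that can be taken with the spleen, summed to 2.64 to 5.93 in low Se non-GD, 7.31 to 68 in low Se GD and 1.38 to 1.51 in normal Se GD, and their part in the low Se GD values was not tested either.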

How the data were processed

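Total RNA of spleen was hybridised to 9 Agilent 1-colour arrays (design 026655), per the labels and the file headers. Each deposited scanner file gives spot intensity after background subtraction (software Agilent Feature Extraction, version 11.0.1.1, per the file headers) and no scaling between arrays, and 0 or 1 marks for spots well above background, saturated or outlying. The authors' deposited table of 39485 probes holds log2 values with a column median of 6.43, whose scaling is not stated in the sources used here, and served as an alternative. The 3 columns of low Se non-GD were closest to other arrays of their group (rank correlation 0.9973 to 0.9976) rather than to their namesakes (0.9796 to 0.9866), so replicate numbers in that group are uncertain.

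Processed signals were taken as log2 minus each array's 75th percentile over 43020 non-control spots. Outlier-marked spots were left out and spots of a probe averaged. A gene was its probe with the highest mean over 9 arrays, and had to be well above background on at least 3 arrays. Accessions named 27228 of 39429 probes in the GRCm38.p6 table and 12201 kept the identifier of the design, whose annotation is on another build. The 36 members had 45 probes for 35 genes. Every member is accounted for by name, with other probes given where their call or sign differs. Of the pathway and marker lists, up to 4 genes past the threshold with the largest change are named in a comparison, with Cd3e, Cd4 and Cd8a whatever their change. Some pathway genes that this rule would name are not reported here.

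Groups were compared with lmFit and eBayes of limma (version 3.58.1, R 4.3.3; 2-sided, 9 arrays in 1 fit, 6 residual and 1.81 prior degrees of freedom), adjusted by Benjamini and Hochberg over 26325 genes at 0.05. The scripts were tested on simulated data. Where a gene was well above background on no array of a group, "at least N-fold" sets the brighter group's mean against a floor averaged over the dimmer group's arrays: the gene's own signal or, if higher, the dimmest one marked well above background on that array. Alternatives were normexp (offset 50), quantile and median scaling, the authors' table, other filters and probe rules, only the groups compared, scan or replicate number as a block, within-scan fits and leaving out arrays. Mean signals were not used here, so normexp was run on median signals. Blocks called slide in the plan are arrays that share a scan time. The number of arrays limits the precision. The members and lists were chosen with earlier results of these data known.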

Additional observations from a re-analysis of the deposited data

How the results depend on the processing

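The main counts of members past the threshold were 6 for low Se GD set against low Se non-GD, 1 for normal Se GD against low Se GD and 11 for normal Se GD against low Se non-GD. In the first comparison they were 3 after normexp, 1 within scan 1 and 0 without both in-between arrays (replicate 3 of low Se non-GD, replicate 2 of low Se GD, chosen after seeing the data), and 3 to 11 with each array left out in turn. In the second they were 0 after normexp, quantile normalization, median scaling, in the authors' table, without a filter, with the mean of all probes, with only the groups compared, with the replicate block and without both in-between arrays. They were 2 with genes well above background on all arrays, 5 with scan as a block, 5 within scan 2, and 0 to 3 with each array left out in turn. Within scan 2 all genes past the threshold rose too, to 2797 from 334 in the main analysis. After normexp, quantile normalization and median scaling 0 of all genes passed, and 3 in the authors' table. These counts of members are therefore not read as a result about the members. At an unadjusted p under 0.05 limma gave 10, 10 and 13 members in the main analysis. The share of all genes at that cut was not counted, so these counts are not read as a result about the members. In the third comparison the counts were 5 after normexp, 6 without both in-between arrays and 9 to 15 with each array left out in turn. No within-scan value was possible there, since no scan held both groups.

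The sign turned in 5 cases among values past the threshold in the main analysis or the alternative, and in 94 cases among values past it in neither. After normexp, in low Se GD set against low Se non-GD, Il18rap was -0.13, Il2 -0.15 and Il10 -0.25, and in normal Se GD against low Se non-GD Il6 was -0.041. With the mean of all probes Il4ra was -0.74 in low Se GD set against low Se non-GD (adjusted p = 0.00964), where its 2 probes differ in sign. The cause of the normexp values was not tested. Over the members and alternatives, 1620 values kept direction and side of the threshold, 83 lost a call and 37 gained one. All genes past the threshold ranged from 269 to 10786, 0 to 2797 and 3043 to 11539 in the 3 comparisons over these alternatives. In the first comparison 3357 genes were higher and 3199 lower (51.2% higher), against 2248 and 3254 after normexp (40.9%), which moved the median of all genes by -0.24.

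Same-numbered deviations correlated at -0.21 to 0.10, so no pairing by replicate number was seen. Replicate numbers of low Se non-GD are uncertain, so these values cannot show that the samples were unpaired. With the replicate block the counts were 4, 0 and 10, and the block is not read as a weaker effect. Near-background genes (Il6, Il10, Il17a, and Il21 in normal Se GD replicate 3) are limited by signal over background. Il2 and Il18rap were well above background on all 9 arrays, yet their sign turned after normexp as given above.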

Other observations

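Lists of neutrophil, stromal and endothelial, and fat tissue genes were read from the same fit. The part of these cells in the members' results was not tested. Of all genes, 12.8% were higher and 12.2% lower in low Se GD than in low Se non-GD. In normal Se GD against low Se non-GD these shares were 18.9% and 13.4%. Of 9 neutrophil genes 2 were higher and 1 lower in low Se GD than in low Se non-GD, with Elane, a granule protease of immature neutrophils, at 0.86 (adjusted p = 0.0023) and Camp, a granule peptide, at -0.43 (adjusted p = 0.0294). In normal Se GD against low Se non-GD 3 were higher and 1 lower. Of 10 stromal and endothelial genes 2 were higher and 1 lower in low Se GD, Cdh5 (1.23) and Pdgfra (1.32) against Cxcl13 (-0.88, adjusted p = 0.013), the follicle chemokine that draws B cells and Tfh cells. In normal Se GD 5 were higher and 0 lower against low Se non-GD. Of 7 tested fat genes 5 were higher and 1 lower in low Se GD than in low Se non-GD, Fabp4 (3.91) and Adipoq (3.51) the most, and Adipoq was lower in normal Se GD than in low Se GD (-5.59, adjusted p = 0.0448).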
